A study of Mus musculus with 6 samples.

Results

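The genes described here are 10 regulators and enzymes of oxidant defence in blood stem cells, found by their symbols among the 23235 genes of the deposited table. They are the FoxO transcription factor genes Foxo1 and Foxo3, the regulator Nfe2l2 (which encodes NRF2) with its inhibitor Keap1, the superoxide dismutase genes Sod1 and Sod2, the catalase gene Cat, the peroxiredoxin genes Prdx1 and Prdx2, and the thioredoxin inhibitor gene Txnip. All 10 were found, and all 10 were among the 11532 genes with a mean of at least 1 FPKM (sequenced fragments of a gene, scaled by transcript length and by library depth) that were tested. The samples were long-term haematopoietic stem cells (LT-HSCs) sorted from bone marrow of C57BL/6 mice aged 2 months, with 3 libraries from wild type (WT) mice and 3 from Hmces knockout mice. The HMCES protein crosslinks to abasic sites of single-stranded DNA. The nature of the Hmces allele, the antibodies of the sort and the meaning of a 13bp tag carried by the titles of both genotypes are absent from the labels, and it is not said whether the 3 libraries of a genotype came from separate mice, so the p-values cover the spread between libraries alone, which may be technical.

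LT-HSCs mostly rest, and resting stem cells are known to depend on low levels of reactive oxygen species. FoxO proteins stay in the nucleus while PI3K-AKT signalling is low and there switch on genes of cell cycle arrest and of peroxide and superoxide removal, and loss of FoxO factors in mice is known to exhaust the stem cell pool. NRF2 is held and destroyed by KEAP1 until oxidants or electrophiles modify KEAP1, after which it binds antioxidant response elements with a small MAF partner. Superoxide dismutases turn superoxide into hydrogen peroxide, and catalase and the peroxiredoxins remove the peroxide. Thioredoxin regenerates peroxiredoxins, and TXNIP binds thioredoxin and restrains it.

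Estimated depth was 9300000 to 14100000 fragments per library, read from the steps of low values with an assumed fragment length of 200 nt. Hmces, listed as 8430410A17Rik, had 39.5, 45.4 and 41.0 FPKM across WT and 8.95, 0.222 and 6.95 FPKM across knockout libraries, lower in each of the 3, as the labels give it (log2 fold change -3.23, limma adjusted p = 0.289, and -2.27 with adjusted p = 0.046 without knockout replicate 2). On the first principal component, knockout replicate 2 lay far from the rest, at 67.0 against -33.6 to 10.1 for the other 5 libraries. Of the stem cell markers Procr, Mecom, Hlf, Meis1 and Kit, each was read in all 6 libraries, Meis1 at 122 to 160 FPKM, whereas Fgd5 and Hoxb5 had means below 1 FPKM. The neutrophil gene S100a8 ranged from 3148 to 5155 FPKM across WT and from 7567 to 12348 FPKM across knockout libraries.

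None of the 10 genes differed between Hmces knockout and WT cells at an adjusted p under 0.05. Txnip and Cat were higher in every knockout library than in every WT library, by 22.4% and 23.4% at the mean. For the other 8 genes the groups overlapped. In bulk RNA, fewer cells of a type and less RNA per cell cannot be told apart. Over all genes tested, limma called 13, or 0.113%, and the groups did not overlap for 15.8%, so 2 of 10 genes without overlap is near the background. Adjusted p-values of the 10 ran from 0.534 to 0.988. The log2 fold change, taken as knockout minus WT after log2(FPKM + 1), was positive for 3 and negative for 7, with a median of -0.06 against -0.01 over all genes tested. Their standard errors were small for this table, with a median of 0.16 against 0.27 over all genes tested. All 10 confidence intervals (95%) lay within a 2-fold change of FPKM + 1 either way, and 6 lay within 1.5-fold. For Foxo1, with a mean of 2.00 FPKM, this scale understates the change. Its interval therefore does not limit the change of its FPKM to 2-fold.

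The levels of the 10 genes spanned 659-fold per transcript length. Sod1 was the most abundant at a mean of 1319 FPKM over the 6 libraries, above 99.2% of genes tested, and Foxo1 the least at 2.00 FPKM, above 10.1%. Prdx2 (497 FPKM) and Prdx1 (471 FPKM) followed Sod1 and exchanged places between libraries, with Prdx2 higher in 4 of 6. Txnip (158 FPKM) and Cat (73.0 FPKM) came next, each clear of its neighbours above. Cat and Sod2 (51.0 FPKM) overlapped in range over the 6 libraries but kept their order in each, as did Nfe2l2 (44.1 FPKM) and Keap1 (31.3 FPKM), while Sod2 exceeded Nfe2l2 in 4 of 6. Foxo3 (19.6 FPKM) lay below Keap1 in all 6 libraries and 9.79-fold above Foxo1.

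**Figure D1:**
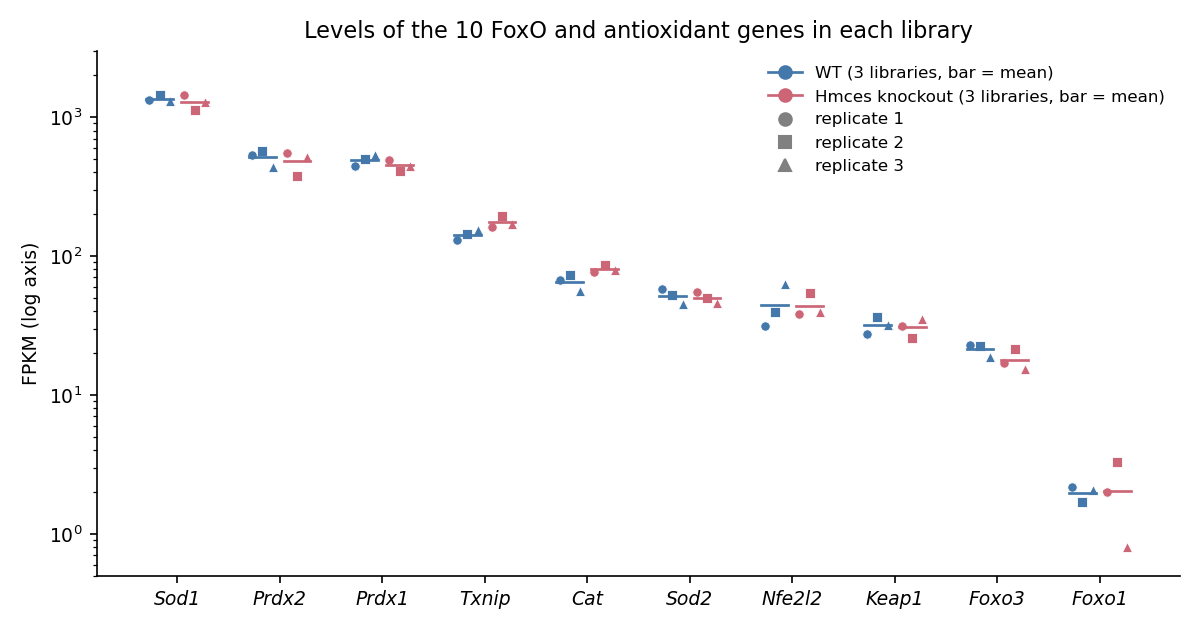
Level of each gene in FPKM on a log axis, ordered by mean, with WT libraries in blue, Hmces knockout libraries in red, marker shapes for replicates 1 to 3 and a bar at each group's mean. Sod1 sits highest in each library, the knockout points of Txnip and Cat lie above all their WT points, and Foxo1 ranges from 0.801 to 3.28 FPKM.

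FoxO factors were led by Foxo3, which is known as the main family member for stem cell maintenance. Foxo3 had 22.7, 22.4 and 18.8 FPKM across WT and 17.02, 21.3 and 15.4 FPKM across knockout libraries. Knockout replicates 1 and 3 were below all WT libraries, while knockout replicate 2 lay among them. The means were 21.3 ± 2.16 and 17.9 ± 3.004 FPKM (SD, n = 3 each), a log2 fold change of -0.25 (interval -0.69 to 0.20, adjusted p = 0.718). Foxo1 gave 2.17, 1.70 and 2.07 FPKM across WT and 1.99, 3.28 and 0.801 FPKM across knockout libraries. The highest and the lowest of its 6 values were both from knockout libraries. An estimated 63 to 311 fragments per library lay behind these values, fewer than for any other of the 10 genes at the low end. Its log2 fold change of -0.06 (interval -0.98 to 0.85, adjusted p = 0.976) is the least precise of the 10, and the ratio of means, 1.02, has the opposite sign. The other family members were outside the test, with Foxo4 averaging 0.243 FPKM across WT and 0.584 FPKM across knockout libraries and Foxo6 listed at 0 in all 6 libraries.

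The NRF2 gene and its inhibitor gave no difference between genotypes that exceeded the spread of the libraries. Nfe2l2 was measured at 31.5, 39.2 and 62.3 FPKM across WT and 38.1, 53.9 and 39.8 FPKM across knockout libraries. WT replicates 1 and 3 held its lowest and highest values, so the spread within WT (44.3 ± 16.1 FPKM, SD, n = 3) was wider than that of the other 9 genes relative to the mean, at 36.2%. The knockout mean was 43.9 ± 8.66 FPKM (log2 fold change 0.03, interval -0.58 to 0.63, adjusted p = 0.988). Keap1, the adaptor of the ligase that destroys NRF2, had 27.4, 36.3 and 31.9 FPKM across WT and 31.2, 25.8 and 35.2 FPKM across knockout libraries. Knockout replicate 2 was the lowest of the 6 and the other knockout libraries lay within the WT range, with means of 31.9 ± 4.43 and 30.7 ± 4.69 FPKM (SD, n = 3 each) and a log2 fold change of -0.05 (interval -0.47 to 0.37, adjusted p = 0.949). These are levels of messenger RNA, whereas NRF2 is controlled largely through the stability of its protein, which was not measured.

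For both superoxide dismutases the genotypes overlapped. Sod1, the copper and zinc enzyme of the cytosol, gave 1318, 1443 and 1311 FPKM across WT and 1443, 1121 and 1280 FPKM across knockout libraries. The highest WT and the highest knockout library were level, and knockout replicate 2 was the lowest of the 6. Its log2 fold change was -0.09 (interval -0.35 to 0.17, adjusted p = 0.830), an interval of 0.783 to 1.13 as a ratio. Sod2, the manganese enzyme of mitochondria, was measured at 58.2, 52.5 and 44.9 FPKM across WT and 54.7, 50.2 and 45.6 FPKM across knockout libraries. All 3 knockout values lay inside the WT range, with a log2 fold change of -0.04 (interval -0.39 to 0.31, adjusted p = 0.951).

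Catalase, the peroxisomal enzyme that splits hydrogen peroxide into water and oxygen, was one of the pair of genes whose groups did not overlap. Cat had 67.4, 72.7 and 56.0 FPKM across WT and 77.1, 86.2 and 78.6 FPKM across knockout libraries. The lowest knockout library, replicate 1, was above the highest WT library, replicate 2. The means were 65.4 ± 8.51 and 80.6 ± 4.86 FPKM (SD, n = 3 each), a log2 fold change of 0.31 (SE 0.14, interval -0.018 to 0.63, unadjusted p = 0.0609, adjusted p = 0.559 with limma). The exact two-sided permutation test gave p = 0.1, the smallest that 3 against 3 libraries allow.

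The cytosolic peroxiredoxins, among the most abundant transcripts in the table, overlapped between genotypes. Prdx1 gave 447, 501 and 531 FPKM across WT and 489, 411 and 447 FPKM across knockout libraries. Knockout replicate 2 was below all WT values and the other 2 knockout libraries lay within the WT range (log2 fold change -0.13, interval -0.39 to 0.12, adjusted p = 0.735). Prdx2, which is especially abundant in red cells, was measured at 533, 571 and 439 FPKM across WT and 551, 376 and 515 FPKM across knockout libraries. Knockout replicate 2 was again the lowest of the 6, and the other 2 lay within the WT range (log2 fold change -0.11, interval -0.50 to 0.28, adjusted p = 0.867). Red cell precursors also express Prdx2 and Cat. Of their markers, the globin gene Hba-a1 was at most 1.47 FPKM in these 6 libraries. The globin gene Hbb-b1 had 8.94, 25.7 and 4.25 FPKM across WT and 8.73, 36.4 and 9.64 FPKM across knockout libraries, highest in knockout replicate 2 with overlapping groups. The carbonic anhydrase gene Car1 ranged from 7.34 FPKM in knockout replicate 3 to 169 FPKM in knockout replicate 2. The summed level of 15 erythroid markers overlapped between genotypes, at 870.0 to 998 FPKM for WT and 819 to 1036 FPKM for knockout, most of it from Car2. The part of red cell precursors in the values of Prdx2 and Cat was not tested.

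Txnip, which encodes the arrestin family protein that binds thioredoxin and also limits glucose uptake, had the smallest p-value of the 10. It had 131, 144 and 153 FPKM across WT and 160, 193 and 170 FPKM across knockout libraries. Each knockout library was above each WT library, with knockout replicate 2 the highest. The means were 142 ± 10.7 and 174 ± 16.4 FPKM (SD, n = 3 each), a log2 fold change of 0.29 (SE 0.12, interval 0.013 to 0.56). The unadjusted p of 0.042 became 0.534 after adjustment over all genes tested, and the exact two-sided permutation test gave p = 0.1. An unadjusted p under 0.05 on the higher side was found for 4.32% of genes tested, and 7.47% had all knockout above all WT libraries.

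**Figure D2:**
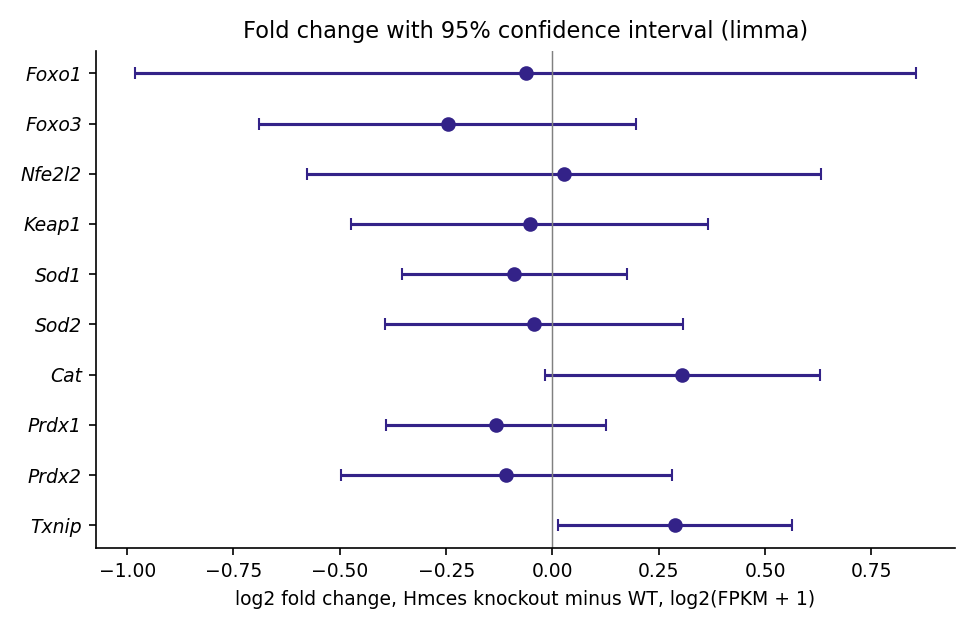
Log2 fold change of each gene (knockout minus WT, from log2(FPKM + 1) values) as a point with its 95% confidence interval from limma, in order of role. The interval of Txnip, from 0.013 to 0.56, is the 1 of the 10 that lies wholly on one side of 0, before adjustment, and that of Foxo1 is the widest.

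The start regions of the genes whose groups did not overlap are shown together with that of Prdx1, a known NRF2 target, because the regulators among the 10 genes act on such regions. Promoter windows, 250 bases before to 50 after the annotated start, were matched for all 10 genes and come from RefSeq on build GRCm38.p6, whereas the expression values were made on mm9. Txnip lies on the plus strand (chr3:96557707-96558006), Cat on the minus strand (chr2:103485104-103485403) and Prdx1 on the plus strand (chr4:116685349-116685648). Capitals mark, on either strand, the FoxO consensus GTAAACA, the antioxidant response core TGACNNNGC and the CCAAT box.
Txnip: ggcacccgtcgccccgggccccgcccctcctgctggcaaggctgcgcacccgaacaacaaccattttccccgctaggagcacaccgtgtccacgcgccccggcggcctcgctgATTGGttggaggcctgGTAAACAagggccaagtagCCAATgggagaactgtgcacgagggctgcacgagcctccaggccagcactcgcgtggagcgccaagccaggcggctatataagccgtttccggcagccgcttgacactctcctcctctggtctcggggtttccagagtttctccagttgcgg
Cat: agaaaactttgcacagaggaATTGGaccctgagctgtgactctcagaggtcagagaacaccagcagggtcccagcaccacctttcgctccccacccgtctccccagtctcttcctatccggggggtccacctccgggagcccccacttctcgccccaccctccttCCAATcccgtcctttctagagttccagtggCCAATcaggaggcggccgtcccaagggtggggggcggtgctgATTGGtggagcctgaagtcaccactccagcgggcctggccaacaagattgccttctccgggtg
Prdx1: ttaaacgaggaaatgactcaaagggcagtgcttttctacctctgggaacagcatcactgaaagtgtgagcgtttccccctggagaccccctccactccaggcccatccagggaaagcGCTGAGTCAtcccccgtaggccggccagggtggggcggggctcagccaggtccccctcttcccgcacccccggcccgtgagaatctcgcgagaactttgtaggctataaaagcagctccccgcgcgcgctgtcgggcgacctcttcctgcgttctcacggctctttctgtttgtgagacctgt

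Txnip was the 1 gene of the 10 with GTAAACA in its window, beginning 121 bases before the start and lying between a pair of CCAAT boxes. Over all 32851 RefSeq promoter windows of this length, 3.65% held GTAAACA on either strand. The core TGACNNNGC was found in 3 of the 10 windows, Prdx1 (TGACTCAGC on the opposite strand, 133 bases before the start, which also holds the AP-1 motif TGACTCA), Sod1 (TGACCACGC) and Nfe2l2 itself (TGACTCCGC), against 12.4% of all windows. Its looser form TGANNNNGC, which includes every TGACNNNGC match, was in 4 of 10 windows against 41.3% of all. CCAAT was in 5 of 10 windows, with 4 matches in Cat and 2 in Txnip, against 37.4% of all, and the E-box CACGTG was in 0 of 10 against 7.15%. The 3 genes with TGACNNNGC had log2 fold changes between -0.13 and 0.03. A match describes the letters in these windows and does not show a bound site.

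The balance within functional pairs was compared as a ratio inside each library, which removes any scaling of the library as a whole. The Txnip to Txn1 ratio, inhibitor to thioredoxin, was 0.336, 0.349 and 0.449 in WT and 0.399, 0.706 and 0.503 in knockout libraries. Knockout replicates 2 and 3 exceeded all WT libraries and replicate 1 lay within the WT range (difference of log2 ratios 0.47, exact permutation p = 0.2), and the difference was 0.26 without knockout replicate 2. Txn1 itself averaged 381 FPKM across WT and 338 FPKM across knockout libraries (adjusted p = 0.737). The ratio of Nfe2l2 to Keap1 was 1.39 ± 0.485 in WT and 1.48 ± 0.527 in knockout libraries, and Foxo3 to Foxo1 was 10.9 ± 2.07 and 11.4 ± 6.87 (SD, n = 3 each). For Foxo3 to Foxo1 the difference of log2 ratios, taken after adding 1 to each FPKM, was -0.18, opposite in direction to these means. Sod2 to Sod1 was 0.0382 ± 0.00519 and 0.0394 ± 0.00478, and Prdx2 to Prdx1 was 1.05 ± 0.198 and 1.06 ± 0.131 (SD, n = 3 each). For these 4 pairs the groups overlapped, with exact permutation p-values between 0.5 and 0.9. Adjusted over the 5 ratios the p-values were 0.875 to 0.9, in a design that cannot go below 0.1 before adjustment.

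Knockout replicate 2 held an extreme of its group for most of the 10 genes. Among the knockout libraries it had the highest level of 5 genes (Foxo1, Foxo3, Nfe2l2, Cat and Txnip) and the lowest of 4 (Keap1, Sod1, Prdx1 and Prdx2). Over all genes tested, this library was the highest of the 3 for 37.8% and the lowest for 32.9%. Each of the other 5 libraries was the highest of its group for 1 to 4 of the 10 genes and the lowest for 1 to 5. WT replicate 3 was the highest for 3 and the lowest for 5, WT replicate 1 for 3 and 4. Knockout replicate 1 was the highest for 4 and the lowest for 3. Holding an extreme for most of the 10 was therefore not particular to knockout replicate 2. Relative to the WT mean, knockout replicate 2 ranged from -0.44 for Prdx2 to 0.52 for Foxo1 on the log2 scale. Without it, the log2 fold change was 0.22 for Txnip and 0.26 for Cat, both still without overlap between groups, while that of Foxo3 was -0.37 with both remaining knockout libraries below all WT libraries. No gene of the 10 was called without it.

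**Figure D3:**
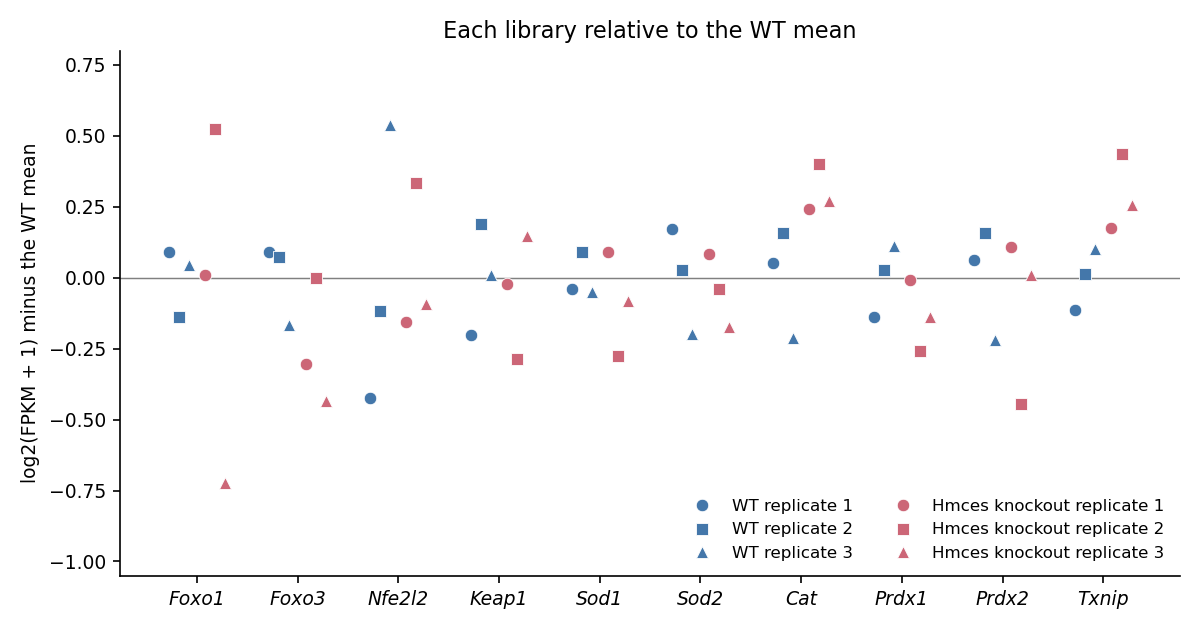
log2(FPKM + 1) of each gene in each library minus the mean of the 3 WT libraries, with WT in blue, Hmces knockout in red and marker shapes for replicates 1 to 3. Knockout replicate 2 (red squares) is at the top of the knockout points for Foxo1, Foxo3, Nfe2l2, Cat and Txnip, and at the bottom for Keap1, Sod1, Prdx1 and Prdx2. WT replicates 1 and 3 are furthest apart for Nfe2l2, at -0.42 and 0.54.

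Other genes of the same pathways were read from 6 lists holding 131 genes, of which 113 were tested. None of the 113 was called by limma at an adjusted p under 0.05. At an unadjusted p under 0.05 there were 7 higher and 7 lower, against 4.32% higher and 4.84% lower over all genes tested. All knockout libraries lay above all WT libraries for 12 genes (10.6%, against 7.47% of all genes tested) and below for 10 (8.85%, against 8.34%). The named genes of these lists are therefore given by their values.

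Most genes that FoxO factors are known to activate had slightly higher means in knockout libraries, and none was called. The log2 fold change was positive for 18 of 25 tested and its median was 0.18 against -0.01 over all genes tested. The median was 0.15 under quantile normalization (16 of 25 positive) and 0.20 under upper quartile scaling (20 of 25 positive). The knockout libraries lay above the WT libraries for 5 (20.0%, against 7.47% of all genes tested) and below for 0, and, without knockout replicate 2, for 9 (36.0%, against 12.5% of all genes tested). Gadd45b, a stress sensor that acts in growth arrest, gave 14.1, 15.01 and 7.92 FPKM across WT and 19.8, 24.6 and 26.3 FPKM across knockout libraries (log2 fold change 0.92, interval 0.30 to 1.53, adjusted p = 0.421). The other 4 fall outside the naming rule and were chosen after their values were seen. Cdkn1b, the p27 inhibitor of cyclin-dependent kinases, was measured at 22.2, 27.6 and 24.7 FPKM across WT and 28.5, 35.9 and 29.8 FPKM across knockout libraries (adjusted p = 0.604). Ccng1 (adjusted p = 0.588), Tnfsf10, which encodes the death ligand TRAIL (adjusted p = 0.733), and Sesn1, a sestrin of the oxidative stress response (adjusted p = 0.699), had log2 fold changes of 0.32, 0.21 and 0.19. Without knockout replicate 2, 20 of the 25 were positive and the median was 0.21.

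Regulators upstream of FoxO were split between directions, and none was called. Of 27 genes tested, 11 were positive and 16 negative, with a median of -0.02 (-0.12 without knockout replicate 2), and the groups did not overlap for 2 in each direction (7.41%, against 7.47% higher and 8.34% lower over all genes tested). Usp7, a deubiquitinase of FoxO proteins and of MDM2, had 4.62, 5.30 and 2.60 FPKM across WT and 7.49, 11.1 and 6.65 FPKM across knockout libraries, all above WT (log2 fold change 0.87, interval 0.13 to 1.62, adjusted p = 0.502). The other 3, chosen after their values were seen, were Stk4 (higher, 0.32), a kinase known to activate FoxO, and Mapk14 (lower, -0.44) and Sirt3 (lower, -0.25), the p38 kinase and the mitochondrial deacetylase. Akt1, the gene of a kinase that keeps FoxO proteins out of the nucleus, was chosen for its role and overlapped between groups. It averaged 19.5 FPKM across WT and 16.1 FPKM across knockout libraries (adjusted p = 0.751).

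Partners and targets of NRF2 were likewise split, and none was called. Of 11 partners tested, 6 were positive (median 0.04, and -0.09 without knockout replicate 2), and the 1 without overlap was Sqstm1, whose product p62 binds KEAP1. Sqstm1 gave 126, 122.6 and 128 FPKM across WT and 98.1, 111 and 101 FPKM across knockout libraries (log2 fold change -0.28, interval -0.53 to -0.030, adjusted p = 0.515). Of 19 targets tested, 8 were positive and 11 negative. Their median was -0.01, turned to 0.02 under quantile normalization and under upper quartile scaling, and was -0.12 without knockout replicate 2. All knockout libraries were above WT for 1 target and below for 4 (21.1%, against 8.34% of all genes tested). Fth1, the heavy chain of the iron store ferritin, was measured at 2228, 2337 and 2120 FPKM across WT and 1859, 1926 and 1818 FPKM across knockout libraries, all below WT (log2 fold change -0.25, interval -0.45 to -0.055, adjusted p = 0.488). Txnrd1, the cytosolic thioredoxin reductase, had 73.9, 77.6 and 76.4 FPKM across WT and 65.8, 36.1 and 44.2 FPKM across knockout libraries (log2 fold change -0.68, interval -1.17 to -0.19, adjusted p = 0.472). The 3 WT libraries were close together for Txnrd1 and the knockout libraries were spread. Ftl1, the ferritin light chain (log2 fold change -0.27, adjusted p = 0.516), and Tkt, transketolase (-0.17, adjusted p = 0.662), made up the 4 and were chosen after their values were seen. Both ferritin genes resemble processed pseudogenes closely, which leaves their levels uncertain. Pgd, an enzyme of the pentose phosphate pathway that supplies NADPH, was the 1 above WT, at 86.0, 99.5 and 89.3 FPKM against 119, 108 and 109 FPKM (adjusted p = 0.532). The classical targets Nqo1 and Hmox1 overlapped between groups, with adjusted p-values of 0.662 and 0.989.

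In the thioredoxin and peroxiredoxin system more genes had lower than higher means, and none was called. Of 22 tested, 14 were negative. The median, -0.11, became -0.07 after quantile normalization and -0.08 after upper quartile scaling. All knockout libraries were below WT for 4 (18.2%, against 8.34% of all genes tested) and above for 1. Txn2, the mitochondrial thioredoxin, gave 202, 224 and 197 FPKM across WT and 175, 141 and 151 FPKM across knockout libraries (log2 fold change -0.42, interval -0.70 to -0.14, adjusted p = 0.423). Txnrd1, given above, belongs to this list as well. Prdx6 and Arrdc3 were the other 2 and were chosen after their values were seen. Prdx6, the single-cysteine peroxiredoxin, was measured at 289, 288 and 290.4 FPKM across WT and 252, 245 and 235 FPKM across knockout libraries (log2 fold change -0.24, adjusted p = 0.506). Arrdc3, an arrestin family relative of Txnip, had a log2 fold change of -0.53 (adjusted p = 0.546), opposite in sign to Txnip. The peroxiredoxin genes Prdx3 (0.01), Prdx4 (-0.11) and Prdx5 (0.26) overlapped between groups. Glrx, a glutaredoxin that reduces protein disulfides with glutathione, was the 1 gene above WT, at 65.1, 65.9 and 66.1 FPKM in WT against 116, 93.1 and 85.3 FPKM in knockout libraries (log2 fold change 0.56, interval 0.23 to 0.89, adjusted p = 0.339).

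Genes of superoxide production by the phagocyte NADPH oxidase were higher in each knockout library for 3 of the 11 genes tested in their list. That is 27.3%, against 7.47% of all genes tested, and 0 lay below WT in every knockout library. Cybb, the catalytic subunit, had 8.79, 7.68 and 9.47 FPKM across WT and 15.6, 26.1 and 17.5 FPKM across knockout libraries (log2 fold change 1.08, interval 0.52 to 1.64, adjusted p = 0.293). Ncf4, a cytosolic subunit, gave 36.7, 47.4 and 27.7 FPKM across WT and 59.6, 49.3 and 62.8 FPKM across knockout libraries (log2 fold change 0.63, adjusted p = 0.486). Ncf1, chosen after its values were seen, had a log2 fold change of 0.61 (adjusted p = 0.502). The list as a whole had a median of 0.04, and Ccs, the copper chaperone that loads SOD1, averaged 51.5 FPKM across WT and 48.0 FPKM across knockout libraries (adjusted p = 0.876). Sod3, the extracellular dismutase, was listed at 0 in all 6 libraries.

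**Figure D4:**
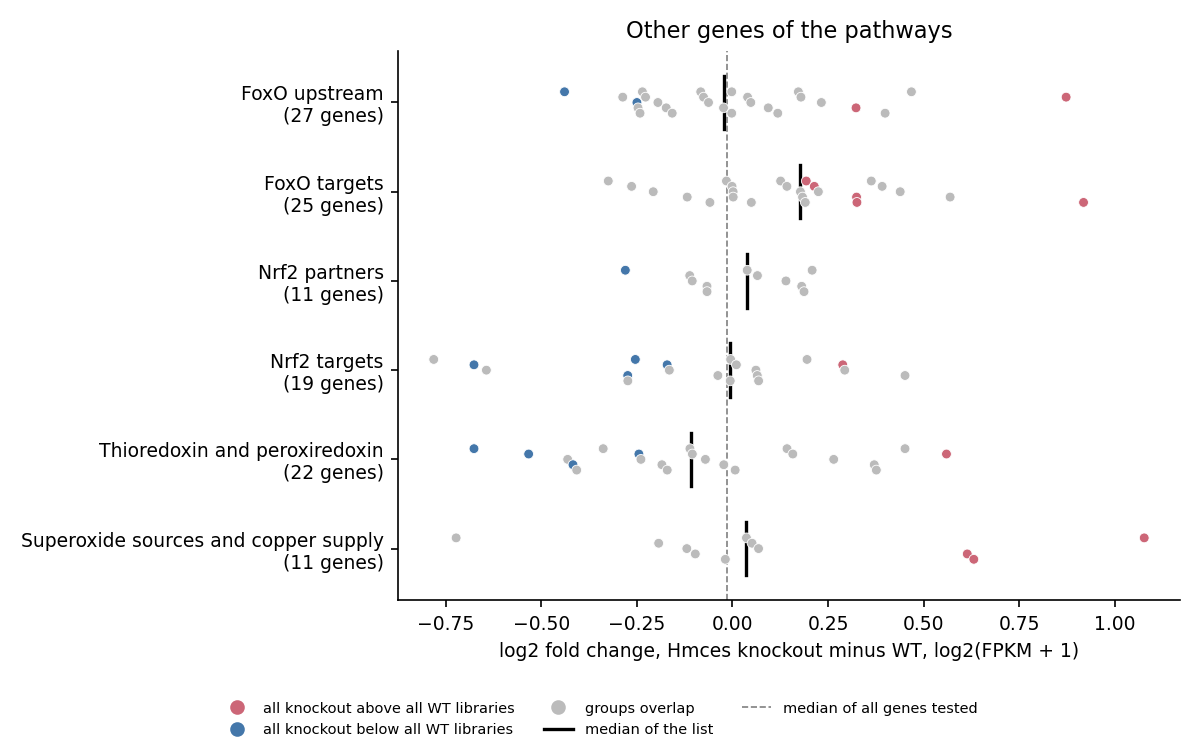
Log2 fold change (knockout minus WT, from log2(FPKM + 1) values) of each tested gene in the 6 pathway lists, coloured by whether the 3 knockout libraries lie all above (red), all below (blue) or among (grey) the 3 WT libraries. Black bars are list medians, from -0.11 for the thioredoxin list to 0.18 for FoxO targets, and the dashed line is the median of all genes tested, -0.01. No point passed an adjusted p of 0.05.

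Markers of other cells were read in the same libraries. Of 15 granulocyte and monocyte markers, 12 were above WT in every knockout library (against 7.47% of all genes tested) and Mpo and Ctsg were called (against 0.113%), with a summed level of 7180 to 11024 FPKM across WT and 19841 to 26316 FPKM across knockout libraries. NADPH oxidase subunits are known to be expressed by these cells. The summed level of the 15 stem cell markers was also above WT in every knockout library, at 790.4 to 869 FPKM against 924 to 959 FPKM, with Ly6a, Esam, Tek and Mllt3 the 4 markers whose groups did not overlap. Megakaryocyte markers summed to 813 to 1214 and 469.6 to 915 FPKM, macrophage markers to 40.2 to 169 and 19.5 to 97.1 FPKM, B cell markers to 59.6 to 75.5 and 69.1 to 129 FPKM, and T and NK cell markers to 301 to 431 and 375 to 468 FPKM, in WT and knockout libraries in turn. Of the markers tested, the groups did not overlap for 0 of 10 in the megakaryocyte list, 1 of 9 (lower) in the macrophage list, 2 of 5 (higher) in the B cell list and 1 of 4 (higher) in the T and NK cell list. Il2rb of the last list, below the mean of 1 FPKM, was lower in every knockout library. Most of the T and NK cell sum came from Nkg7. That gene had 298 to 419 FPKM across WT and 364 to 454 FPKM across knockout libraries. None of the markers was at 0 in all 6 libraries. The part of these cells in the values of Txnip, Cat, Cybb, Ncf1 and Ncf4 was not tested.

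Cat had the largest log2 fold change of the 10, and the genes most like it in pattern were sought among 6084 genes with a mean of at least 10 FPKM. Likeness was the root mean square difference of centred log2 values over the 6 libraries. The closest were Itpripl1 (0.037), Akap8l (0.055), Abcc1 (0.056) and Elf1 (0.061), against a median of 0.31 over all genes compared. Akap8l, which encodes a nuclear protein related to kinase-anchoring proteins, was measured at 38.4, 43.8 and 34.0 FPKM across WT and 45.7, 52.0 and 51.2 FPKM across knockout libraries. Elf1, an ETS family transcription factor gene of blood cells, had 60.9, 64.2 and 55.6 FPKM across WT and 67.1, 79.5 and 74.1 FPKM across knockout libraries. Abcc1, an export pump gene that is also on the NRF2 target list, and Itpripl1 overlapped between groups. With 6 libraries, this likeness is a description of these values.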

How the data were processed

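RNA from 1500 sorted LT-HSCs per library was turned into cDNA with Smart-seq2 and sequenced as paired-end reads of 150 bp, per the labels' protocols. The values deposited by the authors are FPKM per gene, in a column for each library. Mouse build mm9, Cufflinks 2.2.1 and TopHat2 2.1.1 are named in the submitters' processing notes. No source used here gives the annotation, options or use of strand, so overlapping genes and genes with processed copies are less certain.

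Groups followed the titles, 3 libraries each, although the series' design text speaks of duplicates, so an n of 3 rests on the titles and table columns, and no 2 libraries held identical columns. The table holds no depths. That of WT replicate 1 was taken from the value of 1 fragment in 982 single-transcript genes. The other depths were scaled from it by the commonest ratio to it over genes with a mean under 1 FPKM, so they share its error. These depths cover counting error only. Fragments per gene were estimated from GENCODE transcript lengths, which may differ from the annotation used by the authors. Genes with a mean of at least 1 FPKM (11532 of 23235) were taken to log2(FPKM + 1), a scale that understates the change of low genes, and tested in limma 3.58.1 (R 4.3.3) with a mean-variance trend and genotype as the only term. Two-sided p-values received Benjamini-Hochberg adjustment over the tested genes, with calls at an adjusted p under 0.05. The fit was tested on simulated data. Single ratios had exact two-sided permutation tests. Of 224 listed gene entries, all were found, 1 under an older symbol. Named genes were the 10 members, called genes of the pathway lists, and up to 2 per direction with an unadjusted p under 0.05 and groups without overlap. The members and lists were chosen with earlier results of these data known.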

Additional observations from a re-analysis of the deposited data

How the results depend on the processing

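No gene of the 10 and none of the other pathway genes was called under any of the 15 alternative fits, and 138 of 149 alternative values for the 10 genes kept their sign. Txnip (0.22 to 0.35) and Cat (0.20 to 0.38) stayed positive in all 15, and Foxo3 and Prdx1 negative. Leaving out 1 library gave log2 fold changes from -0.36 to 0.27 for Foxo1, -0.18 to 0.0030 for Sod1, -0.14 to 0.042 for Sod2, -0.22 to 0.059 for Prdx2, -0.18 to 0.30 for Nfe2l2 and -0.15 to 0.062 for Keap1, and Sod1 had 0.0091 under quantile normalization. Differences of log2 ratios then ran from -0.19 to 0.35 for Nfe2l2 to Keap1, -0.049 to 0.15 for Sod2 to Sod1, -0.14 to 0.13 for Prdx2 to Prdx1, -0.42 to -0.013 for Foxo3 to Foxo1 and 0.26 to 0.67 for Txnip to Txn1, lowest without knockout replicate 2. The log2 fold change of Hmces ran from -3.78 to -2.27. Over all genes, 13 were called, against 1 with no filter, 6 without the variance trend, 20 with robust estimation, 32 without small RNA genes, and 2 to 19 with 1 library left out (7 without WT replicate 2, 5 without knockout replicate 2, 2 without knockout replicate 3). The cause was not tested.

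Whether replicate numbers pair the samples was not settled. Deviations of same-numbered libraries correlated across genes at 0.080, 0.011 and 0.035, and those of differently numbered libraries at -0.083 to 0.048. Of the 6 libraries, 4 correlated best with their own number, and correlations this weak cannot decide it. With the replicate block, 2 genes were called over all genes and none of the 10. A minimum mean of 5 FPKM removed Foxo1. With 3 libraries per genotype, the interval of Foxo1 reached 0.507 to 1.81 as a ratio of FPKM + 1, the widest of the 10. On the scale of FPKM + 1, these values do not exclude changes that lie inside a gene's interval.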
